A study of Rattus norvegicus with 8 samples.

Results

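The distal and the proximal stump of the cut rat sciatic nerve were set against each other at day 1 after the cut, with 1 array for each of the 2 samples, out of 8 in the whole series. The members are those 2 arrays, taken by the column headings of the authors' value table, and each difference below is distal minus proximal on the log2 scale. Adult female Sprague-Dawley rats had the left sciatic nerve transected at mid-thigh on 1 side, and each sample was RNA pooled from 3 animals. A further array, of the right sciatic nerve at day 1, which its label calls a control with a PBS injection site, is given beside them as a level only. How far from the cut each segment began, how long it was, and whether the pools of both stumps came from the same animals are not given in the sources used here. With 1 array a side no difference has a replicate check, so no p-value is given. The error after ± comes from the spread between repeated spots, pooled over probes of like brightness, and was not measured for each gene on its own. It is technical, and the animals' own spread is unknown.

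Each value table column ranked its probes as exactly 1 scan did (Spearman rho across probes 1.0 after rounding), but for 7 of the 8 samples that scan is recorded under another sample. The distal column matched the scan recorded as distal nerve. The proximal column matched the scan recorded as unstimulated Schwann cells at 24 h, and its rho to the scan recorded as proximal nerve was 0.863. All that follows rests on the column headings. The scan recorded as proximal nerve ranks as the column of Schwann cells given S100A8/A9 for 1 h, and with the scans as recorded 2642 genes were at least 2-fold higher distally and 1827 lower, and the muscle genes had a median of 0.78 in place of -1.13. Tissue markers were read by those headings. The synaptic gene Snap25 stood at 4.11, 4.19 and 5.12 in the nerves and at 12.45 and 14.80 in the cord. It was not well above background in any Schwann cell column. The fat gene Adipoq stood at 13.10 proximally, 13.79 distally and 14.48 contralaterally. In the Schwann cell columns Adipoq was at 1.69, 1.73 and 1.69, not well above background. These levels go with nerve, and not with cord or Schwann cells, for both columns headed as stumps. They do not test which stump is which.

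A peripheral nerve holds axons, the Schwann cells that ensheath them, and a connective tissue with fibroblasts, perineurial cells, vessels, fat and resident macrophages and mast cells. After transection the axons beyond the cut lose their cell bodies and degenerate, a process called Wallerian degeneration, in which Schwann cells leave the myelinating state, leukocytes enter and myelin is cleared. The proximal stump keeps axons that are joined to their cell bodies, yet its cut end is also a wound, with its own inflammation and sprouting axons. In the thigh the sciatic nerve runs between large muscles. Skeletal muscle fibres are not part of the nerve, so a nerve sample should hold little of their RNA.

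The stumps were alike over most genes. Ranks of the probes correlated at 0.992 across genes of these 2 arrays, against 0.951 for distal and 0.958 for proximal with the contralateral nerve; genes are not independent replicates. Of 12222 genes well above background in at least 1 stump, 89.0% lay within 1.5-fold, and the median difference was 0.019. At least 2-fold apart were 388 genes (3.17%). Higher distally were 151 genes (1.24% of those measured), and 237 (1.94%) were at least 2-fold lower; 37 and 55 of these are bounds, in which 1 stump was not well above background and was set to the dimmest level that counts as detected, or to its own level if higher. Muscle genes made up 68 of the 237 and none of the 151. Without the 4 muscle lists 151 of 12091 genes were higher (1.25%) and 169 lower (1.4%). The processed signal of the matching scans, scaled to the 75th percentile, gave a split of 96 higher and 299 lower, so 24.3% of the genes apart were higher, against 38.9% by the value table. Just inside the 2-fold border stood Ncr1 at 1.00 and Msln at -1.01, and just outside Apobec1 and Ces5a.

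**Figure D1:**
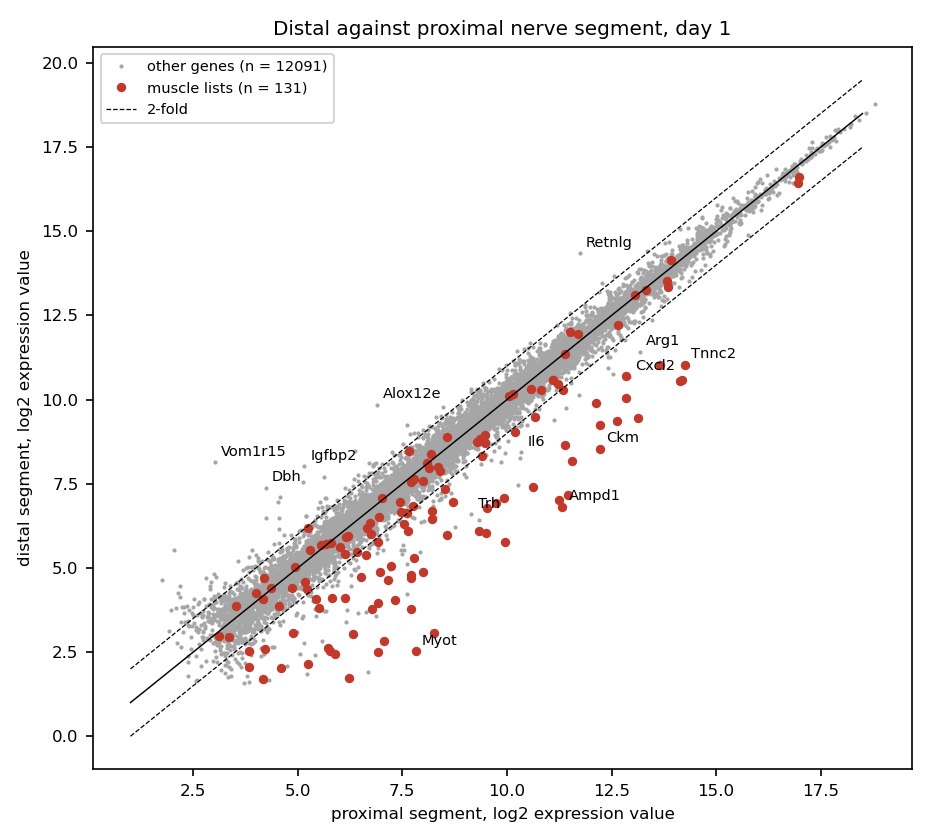
Each point is 1 of 12222 measured genes, by its log2 expression value in the proximal (horizontal) and distal segment (vertical), with equality as a solid and 2-fold as broken lines. The 131 muscle genes (red) lie on or below the solid line for the most part, and 68 of them lie below the lower broken line.

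Skeletal muscle genes stood lower in the distal stump and made up most of the lowest differences. Of 172 genes on the 4 muscle lists 132 had values and 131 were measured. Of those 131, 68 were at least 2-fold lower distally (51.9%, beside 1.94% of all genes), none was 2-fold higher, and the median was -1.13, beside 0.019 for all genes. All 131 were well above background proximally, 115 distally and 104 contralaterally. A gene that was measured only because of a high proximal level had to differ, so the count describes the genes measured and not the lists. Members of these and all later lists were chosen with earlier results of these data known. A list share beside that of all genes is therefore a description and no test. Over the 115 that were well above background in both stumps the median was -0.83. Among the 20 lowest genes measured in both stumps 18 came from these lists. As a share of the summed linear signal of all measured genes, the 131 made up 1.01% proximally, 0.597% distally and 0.773% contralaterally. In a bulk sample more muscle tissue and more RNA per fibre cannot be told apart.

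Promoters of the lowest muscle genes are shown because their sequence is where myogenic factors are known to act. They come from RefSeq (assembly GRCr8) and run from 250 bases before to 50 after the gene's start, 5′ to 3′ on the gene's strand: Ampd1 at chr2:193287082-193287381 (plus), Trim54 at chr6:30978426-30978725 (minus), Myl1 at chr9:75907647-75907946 (minus, the first of its 2 starts) and Myh4 at chr10:52421898-52422197 (plus). Capitals mark the E-box CAGCTG, a motif of MyoD-type factors, and the MEF2 motif, CTA and TAG with any 4 bases between them; both read the same on either strand.
Ampd1: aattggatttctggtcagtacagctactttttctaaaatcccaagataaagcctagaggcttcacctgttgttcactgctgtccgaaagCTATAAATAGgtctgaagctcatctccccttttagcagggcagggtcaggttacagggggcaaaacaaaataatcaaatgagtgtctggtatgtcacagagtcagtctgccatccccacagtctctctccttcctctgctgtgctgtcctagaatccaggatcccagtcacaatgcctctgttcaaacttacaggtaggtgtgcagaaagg
Trim54: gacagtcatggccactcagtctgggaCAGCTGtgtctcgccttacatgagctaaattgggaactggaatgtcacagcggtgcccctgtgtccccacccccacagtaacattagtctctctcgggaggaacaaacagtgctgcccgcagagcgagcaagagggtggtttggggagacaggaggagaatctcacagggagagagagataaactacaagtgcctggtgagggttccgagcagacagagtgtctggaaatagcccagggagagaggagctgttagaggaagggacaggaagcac
Myl1: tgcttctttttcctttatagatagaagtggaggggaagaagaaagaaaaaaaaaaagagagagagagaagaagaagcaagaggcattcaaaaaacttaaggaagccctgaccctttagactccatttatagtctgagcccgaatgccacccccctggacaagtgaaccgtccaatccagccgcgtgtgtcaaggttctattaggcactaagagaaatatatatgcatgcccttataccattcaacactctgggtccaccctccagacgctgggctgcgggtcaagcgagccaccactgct
Myh4: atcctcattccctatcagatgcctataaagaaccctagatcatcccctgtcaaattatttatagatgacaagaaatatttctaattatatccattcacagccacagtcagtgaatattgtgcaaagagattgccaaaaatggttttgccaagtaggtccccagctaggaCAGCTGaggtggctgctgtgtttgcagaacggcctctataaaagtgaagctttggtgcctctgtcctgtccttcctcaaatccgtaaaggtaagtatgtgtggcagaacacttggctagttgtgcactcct
The MEF2 match of Ampd1 begins 161 bases before its start, and the E-boxes of Trim54 and Myh4 begin 224 and 81 bases before theirs; Myl1 holds neither in this window. An E-box occurred in 15.1% of 33469 promoters and in 42 of the 110 promoters of 101 muscle list genes that have an entry (38.2%). The MEF2 motif was in 3.84% of all and in 14.5% of those 110. Among muscle genes at least 2-fold lower distally 47.3% of 55 promoters held an E-box, and among those within 2-fold 29.1% of 55. For the MEF2 motif the shares were 16.4% and 12.7%. These promoters belong to 54 and 47 genes, so a gene with several starts counts more than once. Whether the shares differ was not tested. A match is a run of letters and says nothing of binding.

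Contractile genes had the lowest median of the 4 muscle lists. Of 52 sarcomere genes measured, 32 were at least 2-fold lower distally (61.5%, beside 1.94% of all genes), with a median of -1.57. Of the 32, 7 were bounds, measured only because of their proximal level. Over the 45 that were well above background in both stumps the median was -1.13. Myl1 (NM_020104), a light chain of fast myosin, had levels of 11.45 proximally, 7.17 distally and 4.98 contralaterally, a difference of -4.28 ± 0.096. The heavy chain of the fastest fibres, Myh4 (NM_019325), stood at 11.24 proximally, 7.01 distally and 4.47 contralaterally, a difference of -4.23 ± 0.10. Proximal levels were thus high for both, and the distal level lay between the other nerves. Myh1, a further fast heavy chain, was at 9.96 proximally, 5.77 distally and 6.43 contralaterally (-4.18 ± 0.12). Trim54, a ubiquitin ligase of the sarcomere, stood at 6.93 proximally, 2.50 distally and 2.13, not well above background, contralaterally, and its difference of -4.42 ± 0.35 puts the distal level at the border of detection. The perinatal heavy chain Myh8 (14.19 proximally, 10.60 distally) and the fast light chain Myl11 (14.14 and 10.56) were among the brightest, 12.1-fold and 12-fold lower in the distal stump. Fast troponins were lower as well, with Tnnt3 at -3.26 ± 0.062 and Tnnc2 at -3.22 ± 0.062. The Z-disc protein gene Myot was well above background only proximally (7.82), so its difference is at most -5.28, and likewise Myh2 is at most -3.73 and Pdlim3 at most -3.24; with normexp background correction, which adds an offset and so draws dim genes together, the difference moved for Myot to -1.84, Trim54 to -1.21, Myh2 to -0.91 and Pdlim3 to -0.66.

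Not all muscle genes differed in this way. Chosen after their values were seen, the slow heavy chain Myh7 stood at 6.91 proximally, 3.95 distally and 6.96 contralaterally, so that the proximal and contralateral nerves were level and the distal one low. The slow troponins Tnnt1 (-0.51) and Tnni1 (-0.73) stayed within 2-fold, and Tnnc1 was at -1.07. The embryonic heavy chain Myh3 was at 0.048, Tpm3, a tropomyosin that many cells use, at 0.23, and the small heat shock protein gene Cryab, which Schwann cells also express, at -0.53. The cardiac and slow fibre heavy chain Myh6, which is on no list, stood at 7.62 proximally, 5.11 distally and 7.46 contralaterally (-2.51 ± 0.16). Myh6 and Myh7 are close relatives in sequence, and cross-hybridisation of their probes was not tested. Normexp moved Myh6 to -1.26.

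Genes of excitation and calcium handling followed, with 14 of 29 at least 2-fold lower (48.3%, beside 1.94% of all genes). Of these 2 were bounds, and the median of the list was -0.92. The calcium pump Atp2a1 of fast fibres stood at 13.13 proximally, 9.46 distally and 7.82 contralaterally, a difference of -3.66 ± 0.062. Proteins that couple excitation to calcium release were lower as well: triadin Trdn was at -3.45 ± 0.17 (its other probe at -5.07), calsequestrin Casq1 at -2.72 ± 0.10, the voltage sensor Cacna1s at -2.58 ± 0.16 and Stac3 at most -3.29. Parvalbumin, Pvalb, which buffers calcium, had levels of 12.23 proximally, 9.23 distally and 9.52 contralaterally (-3.00 ± 0.062). Hhatl, with 2.84 distally against 7.06 proximally, was lowest of this list at -4.22 ± 0.34. The list also held Sypl2 (-2.98, its other probe -0.36), Scn4b (-2.50), Cacng1 (-2.17), Hrc (-2.08) and sarcolipin Sln (-2.03). Subunits of the acetylcholine receptor, which takes the nerve's signal at the muscle membrane, stood close to 0: Chrna1 at 0.065 and Chrne at 0.23, picked after their values were seen. With normexp the difference moved for Hhatl to -1.31, Sypl2 to -1.51, Cacna1s to -1.64, Scn4b to -1.06, Stac3 to -0.90, Cacng1 to -0.97, Hrc to -0.85 and Sln to -0.63.

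Genes of muscle energy metabolism had 13 of 28 at least 2-fold lower (46.4%, beside 1.94% of all genes). Of these 2 were bounds, and the median of the list was -0.68. Ampd1 (NM_138876), the AMP deaminase of muscle, gave the lowest difference of any gene measured in both stumps: 11.33 proximally, 6.82 distally and 5.64 contralaterally, that is -4.50 ± 0.12 or 22.7-fold. Muscle creatine kinase Ckm stood at 12.23 proximally, 8.54 distally and 7.30 contralaterally (-3.69 ± 0.096), and its mitochondrial partner Ckmt2 was at -3.23 ± 0.12. The muscle forms of cytochrome oxidase subunits were also lower, Cox6a2 at -3.37 ± 0.096 and Cox8b at -2.81 ± 0.12. Muscle forms of glycolytic enzymes, Pgam2 (-2.84 ± 0.10) and Eno3 (-2.16 ± 0.062), and of glycogen breakdown, Pygm (-1.73 ± 0.16), went the same way. The ecto-ADP-ribosyltransferase Art1 was detected only proximally and is at most -5.19, and Ppp1r3a, which brings a phosphatase to glycogen, at most -2.10. Myoglobin, Mb, was at -1.19 ± 0.067 and Fbp2, a muscle form of a gluconeogenic enzyme, at -1.77 ± 0.35. Named after their values were seen, the glycolytic enzyme Aldoa stood at -0.50, the mitochondrial carrier Slc25a4 at -0.068 and Fabp3 at 0.81. Normexp moved Art1 to -2.04, Ppp1r3a to -0.37 and Fbp2 to -0.70.

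Among 22 regulators of muscle 9 were at least 2-fold lower (40.9%, beside 1.94% of all genes). Of these 3 were bounds, and the median of the list was -0.50. Myf6, the myogenic factor most abundant in mature fibres, stood at 7.71 proximally, 3.79 distally and 1.64, not well above background, contralaterally, a difference of -3.92 ± 0.34. Other myogenic factors were not alike: Myod1 is at most -1.34, while Myog was at -0.48 and Myf5 at -0.15. Abra, which links actin to transcription, was at -3.11 ± 0.070, the splicing factor Rbfox1 at -2.48 ± 0.16, caveolin Cav3 of the muscle membrane at -1.75 ± 0.16 and Rbm24 at -1.17 ± 0.20. Tnmd, a tendon gene, is at most -3.38, and Cdh15, a cadherin of muscle precursor cells, at most -1.28. Ncam1, which non-myelinating Schwann cells also make, was at -1.23 ± 0.16, with 8.60 contralaterally. Normexp moved Myf6 to -1.70, Abra to -1.59, Rbfox1 to -1.32, Cav3 to -1.11, Tnmd to -0.74, Myod1 to -0.16, Cdh15 to -0.18, Ncam1 to -0.67 and Rbm24 to -0.97.

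**Figure D2:**
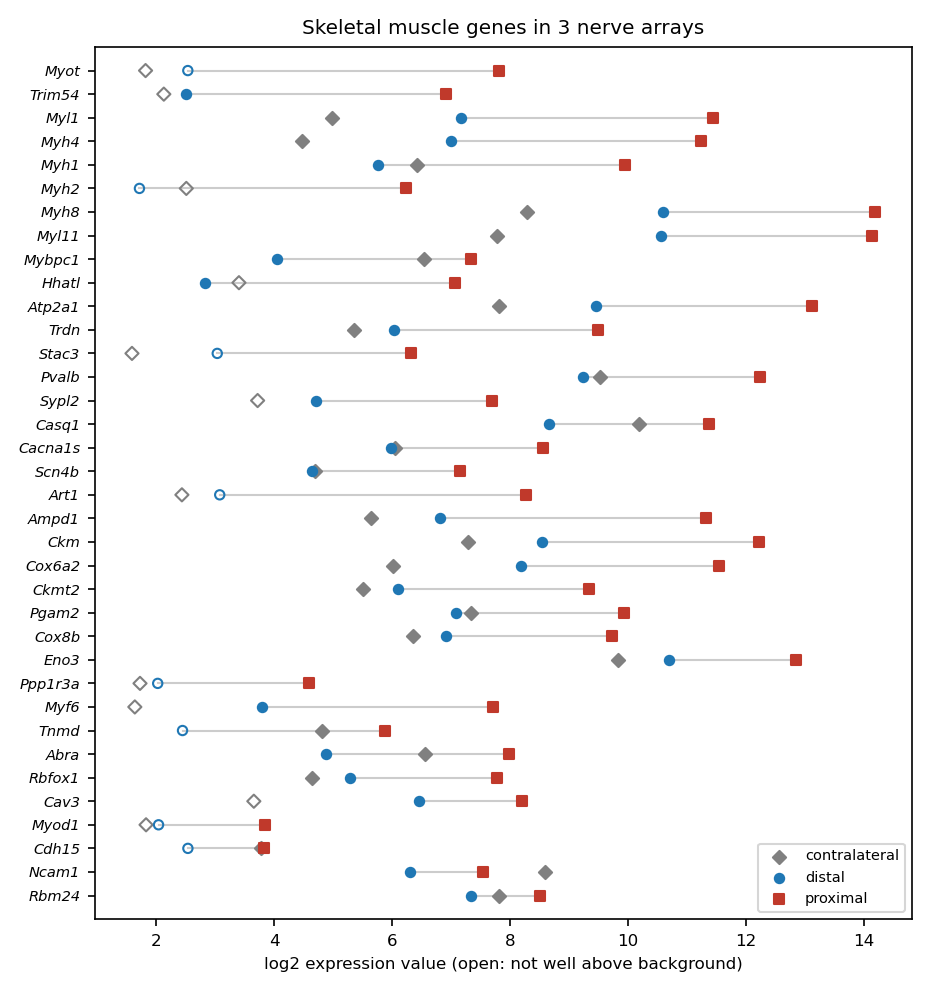
Log2 expression values (horizontal) of 36 muscle genes in the contralateral (diamonds), distal (circles) and proximal nerve (squares), up to 9 from each muscle list; open symbols are not well above background. The proximal square lies right of the distal circle in every row, as the choice of genes fixes, while the diamond lies on either side of the circle.

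Against the contralateral array, which both comparisons share, the muscle lists stood as follows. The median of the 131 genes was 1.16 for the proximal and 0.067 for the distal stump. For sarcomere genes it was 2.03 and 0.35, for excitation and calcium genes 0.80 and -0.029, and for energy genes 1.28 and 0.16. Of the 68 genes that were at least 2-fold lower distally, 64 had their highest level proximally. Their choice fixed that the distal level was below the proximal one, so only the contralateral level could have been higher. Whether muscle tissue was collected with the proximal stump was not tested, nor was its part in the differences of any other list below. The median of the genes outside the muscle lists was 0.021, and centring both columns on those genes gave 137 higher and 247 lower.

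Outside the muscle lists, many of the lowest genes are also known from muscle, as background. The 20 lowest include Asb11 (-3.40 ± 0.34), Klhl31 (-3.30 ± 0.35), the cytidine deaminase relative Apobec2 (-2.54 ± 0.16), hemojuvelin Hjv (-2.43 ± 0.35), the striated muscle ribosomal protein Rpl3l (-2.22 ± 0.16), the lipid droplet protein Fitm1 (-2.06 ± 0.16), the GTPase Rrad (-2.89 ± 0.12), the phosphatase Dusp13b (-1.91 ± 0.16) and the secreted peptide Ostn (-1.97 ± 0.35). Apobec2 had levels of 8.75 proximally, 6.21 distally and 5.44 contralaterally, the order of the muscle lists' brightest genes. A second group had a contralateral level near or above the proximal one. Mmd2 stood at 10.27 proximally, 7.47 distally and 10.46 contralaterally (-2.80 ± 0.10), and the retinoid receptor Rxrg at 10.31 proximally, 8.25 distally and 11.40 contralaterally (-2.06 ± 0.10). In these the distal stump was the low one of the 3 nerves. Keratin 18, Krt18, was at -2.01 ± 0.16, Pde4dip at -2.01 ± 0.35, Zswim3 at -2.45 ± 0.16, Lix1 at -2.93 ± 0.49 and the junction protein Ajap1 at -2.78 ± 0.49. Trh, the precursor of thyrotropin-releasing hormone, stood at 9.15 proximally, 6.59 distally and 1.70, not well above background, contralaterally, a difference of -2.55 ± 0.12, so it was highest proximally and lowest in the uncut nerve. Among bounds Gimd1 is at most -4.19. With normexp the sign of Zswim3 and Gimd1 turned, to 0.60 and 0.78, and the difference moved for Asb11 to -1.42, Klhl31 to -1.04, Fitm1 to -1.09, Ajap1 to -0.95, Lix1 to -0.86, Hjv to -0.69, Rpl3l to -0.99, Krt18 to -0.97, Pde4dip to -0.61, Ostn to -0.49 and Dusp13b to -0.95.

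The highest genes were a mixed group, and 121 of the 151 are on no list. Vom1r15 (NM_001008960), a vomeronasal receptor gene, stood at 3.02 proximally, 8.14 distally and 3.24, not well above background, contralaterally, a difference of 5.13 ± 0.36 or 34.9-fold, from 1 probe. Dbh (NM_013158), the enzyme that makes noradrenaline, was at 4.24 proximally, 7.38 distally and 6.99 contralaterally (3.15 ± 0.36), so the proximal stump was the low one. Igfbp2 (NM_013122), which binds insulin-like growth factors, had levels of 5.15 proximally, 8.02 distally and 5.32 contralaterally, with 2.87 ± 0.17 and 2.45 by its other probe. Here the distal stump was the high one. The myeloid gene Retnlg (NM_181625) was by far the brightest of them, with 11.74 proximally, 14.35 distally and 10.64 contralaterally, a difference of 2.60 ± 0.058 or 6.08-fold. Gdnf, a neurotrophic factor that denervated Schwann cells are known to make, stood at 5.62 proximally, 7.69 distally and 3.80, not well above background, contralaterally (2.07 ± 0.17), and the EGF family ligand Btc at 4.55 proximally, 6.49 distally and 4.04 contralaterally (1.94 ± 0.37). Akr1c3, a steroid and prostaglandin reductase, was at 2.43 ± 0.52, and Aldh1a3, which makes retinoic acid, at 1.48 ± 0.37; contralateral levels of 7.55 and 5.59 were above the distal ones. Rnase1 and Rnase1l2 are close paralogs, so their probes may not tell them apart. Rnase1 stood at 7.60 proximally, 9.25 distally and 12.56 contralaterally (1.65 ± 0.12) and Rnase1l2 at 1.44 ± 0.17, both far below the uncut nerve in each stump. Hepacam2 (1.80), Tmprss4 (1.64), Plcxd3 (1.61) and the macrophage receptor Adgre4 (1.42) complete the 20 with genes given below. The largest bounds were Tas2r139, a taste receptor gene, at least 3.33, Supt20hl1 at least 2.44, Clec4m at least 2.28, Bcl2l14 at least 2.07 and Cd209d at least 1.95. Normexp moved Vom1r15 to 3.01, Dbh to 1.25, Igfbp2 to 1.59, Akr1c3 to 1.04, Gdnf to 1.19, Btc to 0.69, Aldh1a3 to 0.36, Rnase1l2 to 0.75, Hepacam2 to 0.23, Tmprss4 to 0.27, Plcxd3 to 0.54, Adgre4 to 0.75, Tas2r139 to 0.54, Supt20hl1 to 0.26, Clec4m to 0.31, Bcl2l14 to 0.22 and Cd209d to 0.23.

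**Figure D3:**
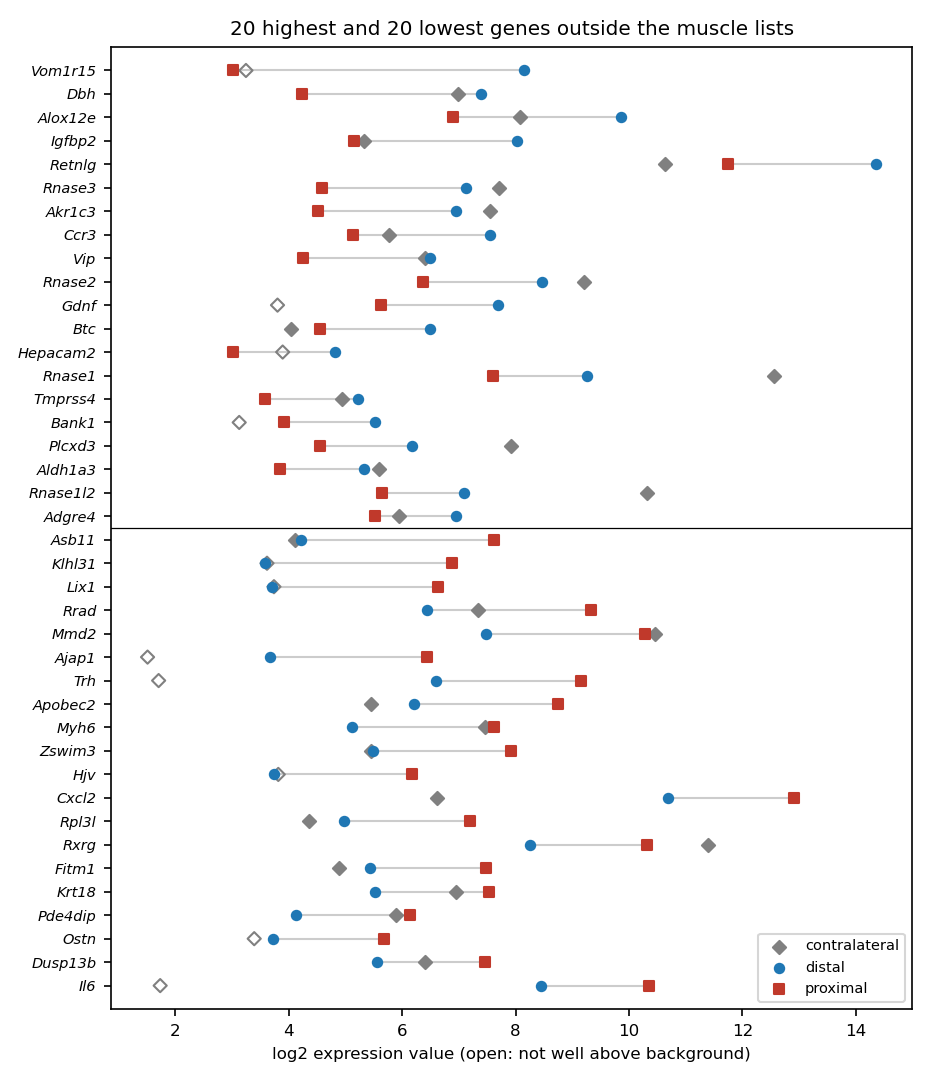
Log2 expression values (horizontal) of the 20 genes highest and the 20 lowest distally outside the muscle lists, in the contralateral (diamonds), distal (circles) and proximal nerve (squares); open symbols are not well above background. For Dbh and Vip the contralateral level lies beside the distal one, for Vom1r15 and Igfbp2 beside the proximal one.

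Eosinophil genes split. Of 11 measured (of 17 listed) 5 were at least 2-fold higher distally (45.5%, beside 1.24% of all genes) and none lower, with a median of 0.84. The eotaxin receptor Ccr3 stood at 5.12 proximally, 7.55 distally and 5.77 contralaterally, a difference of 2.43 ± 0.17. Rnase2 and Rnase3, eosinophil granule ribonucleases and close paralogs, were at 2.11 ± 0.075 and 2.53 ± 0.36. Rnase2 stood at 6.36 proximally, 8.47 distally and 9.20 contralaterally, so the uncut nerve had the most. Siglec5 was at 1.05 ± 0.24. The fifth, the lipoxygenase Alox12e, is an epidermal-type enzyme and no marker of eosinophils; it stood at 6.89 proximally, 9.85 distally and 8.08 contralaterally (2.96 ± 0.15). Without it 4 of 10 were higher (40.0%), with a median of 0.78, and with the paralogs Rnase2 and Rnase3 counted once, by Rnase3, 3 of 9, with a median of 0.72. The granule protein gene Prg2 was at 0.074, and the eotaxins Ccl11 and Ccl24, which draw eosinophils, at 0.13 and -0.028, named after their values were seen. Normexp moved Ccr3 to 1.21, Rnase3 to 1.05, Rnase2 to 1.42, Alox12e to 2.38 and Siglec5 to 0.68, and the 75th percentile left Siglec5 at the border of 2-fold.

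Neutrophil genes had a median near that of all genes. Of 29 measured 1 was higher, Retnlg (3.45%, beside 1.24% of all genes), and 3 were lower (10.3%, beside 1.94%), with a median of -0.094. The decoy receptor Il1r2 stood at 11.12 proximally, 9.38 distally and 6.26 contralaterally (-1.74 ± 0.067), and Mmp9, a gelatinase, at 7.51 proximally, 6.32 distally and 1.72, not well above background, contralaterally (-1.19 ± 0.070). Elastase, Elane, is at most -1.25. S100a8 and S100a9, the calcium-binding proteins that neutrophils hold in bulk, were high in both stumps: S100a8 stood at 13.61 proximally, 13.06 distally and 5.73 contralaterally (-0.56 ± 0.058) and S100a9 at 13.63 proximally, 13.32 distally and 7.13 contralaterally (-0.31 ± 0.058). For both genes the stumps lay within 2-fold of each other, with a difference beyond the spot error. Of the receptors known for this complex, the Toll-like receptor Tlr4 stood at 0.79 ± 0.12 and the RAGE gene Ager at -0.26 ± 0.18. With normexp Elane moved from its bound to -0.20 and Mmp9 to -0.71.

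Macrophage genes stood a little higher distally. Of 41 measured 32 were above 0 (52.9% of all genes were), and the median was 0.37. At least 2-fold apart were 2 higher (4.88%, beside 1.24% of all genes) and 1 lower (2.44%, beside 1.94%). The scavenger receptor Cd163 stood at 13.34 proximally, 14.41 distally and 11.63 contralaterally (1.07 ± 0.058) and the hyaluronan receptor Lyve1 at 12.56 proximally, 13.68 distally and 11.98 contralaterally (1.12 ± 0.058). Both mark resident tissue macrophages, and Lyve1 also lymphatic vessels. Chosen after their values were seen, Mrc1 (1.00, just under 2-fold), Clec10a (0.94) and Folr2 (0.87) were next. On the other side stood Arg1, arginase of wound macrophages, at 13.17 proximally, 11.43 distally and 9.81 contralaterally (-1.74 ± 0.026), and Nos2 at -0.99. General markers lay between, with Cd68 at 0.51, Csf1r at 0.56 and Adgre1 at 0.82.

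By their medians lymphocyte genes also stood somewhat higher distally. Among 43 genes of T and NK cells 35 were above 0 (52.9% of all genes were), 5 at least 2-fold higher (11.6%, beside 1.24% of all genes) and none lower, with a median of 0.44. The coreceptor Cd8a stood at 8.31 proximally, 9.48 distally and 4.69 contralaterally (1.17 ± 0.12) and the costimulator Icos at 6.93 proximally, 7.97 distally and 3.76, not well above background, contralaterally (1.04 ± 0.17). The signalling adaptor Sh2d1a (1.23 ± 0.37) and the NK receptors Klrd1 (1.05 ± 0.37) and Ncr1 (1.00 ± 0.47) were dim. Subunits of the T cell receptor complex stood at 0.40, 0.42 and 0.52 (Cd3d, Cd3e and Cd3g, added after their values were seen). Of 14 B cell genes measured, out of 23 listed, 3 were higher (21.4%, beside 1.24% of all genes) and none lower (median 0.56). The 3 were Bank1 at 1.62 ± 0.52, the transcription factor Spib at 1.29 ± 0.054 and Cd22 at 1.14 ± 0.18. The other way, 5 of the 14 were below 0, down to -0.75. The list's share of the summed linear signal was 0.0252% distally and 0.0333% proximally. Spib stood at 8.48 proximally, 9.77 distally and 4.00, not well above background, contralaterally and also serves plasmacytoid dendritic cells. Normexp moved Icos to 0.68, Sh2d1a to 0.25, Klrd1 to 0.23, Ncr1 to 0.040, Bank1 to 0.46 and Cd22 to 0.52 and brought the B cell median to 0.20. The 75th percentile of the matching scans took Icos to 0.98, Sh2d1a to 0.96, Klrd1 to 0.82 and Ncr1 to 0.73, so of the 5 T and NK cell genes only Cd8a was at least 2-fold higher by both of these settings.

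Mast cell and dendritic cell genes had none at least 2-fold apart among 15 and 19 measured, which for lists so short is near the 3.17% of all genes. The mast cell median was 0.43, with 11 genes above 0; the proteases Cpa3 (0.76 ± 0.067) and Cma1 (0.61 ± 0.058) were highest, and Mcpt10 was at -0.12 ± 0.14. For genes of dendritic cells and MHC class II presentation the median was 0.14. Clec9a, of cross-presenting dendritic cells, was at 0.72 ± 0.063 and the lysosomal reductase Ifi30 at 0.59 ± 0.026, while the chemokine Ccl17 was at -0.64 ± 0.16 and the bundling protein Fscn1 at -0.43 ± 0.058.

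Of 31 chemokine genes measured 3 were at least 2-fold lower (9.68%, beside 1.94% of all genes) and none higher, with a median of -0.028. The 3, Cxcl2, Cxcl1 and Cxcl6, are ligands of the neutrophil receptor Cxcr2. Cxcl2 (NM_053647) stood at 12.92 proximally, 10.68 distally and 6.61 contralaterally, a difference of -2.24 ± 0.062 or 4.71-fold. Cxcl1 had levels of 12.43 proximally, 11.26 distally and 7.43 contralaterally (-1.17 ± 0.028), and Cxcl6 of 5.41 proximally, 3.78 distally and 1.74, not well above background, contralaterally (-1.63 ± 0.35). In each the proximal stump was highest and the distal one still above the uncut nerve. Ccl20 was at -0.99. Of the chemokines that draw monocytes Ccl2 was at -0.29 and Ccl7 at -0.24, while Ccl12 stood higher distally at 0.99, as did Cxcl10, an interferon-induced ligand of T cells, at 0.96; these 5 were named after their values were seen. Normexp moved Cxcl6 to -0.36.

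The promoters of these 3 neighbouring chemokine genes are printed to show the kappaB motif, GGG and TTTCC with any 2 bases between them, which NF-kB proteins read. It was searched on both strands and is in capitals. They were chosen after the differences were seen, are of RefSeq (GRCr8) and lie on the minus strand: Cxcl2 at chr14:17467206-17467505, Cxcl1 at chr14:17479272-17479571 and Cxcl6 at chr14:17596368-17596667.
Cxcl2: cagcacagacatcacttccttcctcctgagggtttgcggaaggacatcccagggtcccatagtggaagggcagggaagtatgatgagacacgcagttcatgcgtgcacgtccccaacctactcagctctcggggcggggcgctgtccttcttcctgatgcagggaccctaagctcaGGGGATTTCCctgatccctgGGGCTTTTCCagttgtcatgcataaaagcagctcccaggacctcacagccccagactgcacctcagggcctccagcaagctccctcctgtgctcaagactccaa
Cxcl1: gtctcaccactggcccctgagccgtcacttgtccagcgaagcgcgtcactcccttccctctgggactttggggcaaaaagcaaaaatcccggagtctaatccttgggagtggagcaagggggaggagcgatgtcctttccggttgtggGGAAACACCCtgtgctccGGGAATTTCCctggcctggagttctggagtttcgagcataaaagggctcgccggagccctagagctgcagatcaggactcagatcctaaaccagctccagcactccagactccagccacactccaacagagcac
Cxcl6: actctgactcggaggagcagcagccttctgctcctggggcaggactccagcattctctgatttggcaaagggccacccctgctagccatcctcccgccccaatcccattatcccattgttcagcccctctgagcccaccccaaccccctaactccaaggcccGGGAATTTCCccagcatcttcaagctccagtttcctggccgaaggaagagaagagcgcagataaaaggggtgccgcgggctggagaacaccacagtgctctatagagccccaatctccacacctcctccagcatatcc
Cxcl2 holds 2 matches, beginning 74 and 54 bases before the start, Cxcl1 2, at 102 and 84 bases before it, and Cxcl6 1, at 88 bases before it. Of all 33469 promoters 1.53% held the motif, and of 25 chemokine promoters with an entry 5 did (20%). The E-box and MEF2 motif are in none of the 3 windows.

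Cytokines showed 2 of 30 at least 2-fold lower (6.67%, beside 1.94% of all genes) and none higher, with a median of -0.074. Il6, an early injury cytokine, stood at 10.34 proximally, 8.44 distally and 1.73, not well above background, contralaterally (-1.90 ± 0.045). Inhba, the chain of activin A, was at 12.54 proximally, 10.77 distally and 8.71 contralaterally (-1.77 ± 0.062). Both stood above the uncut nerve in each stump, and highest proximally. Named after their values were seen, Il1b was at -0.55, Il1rn at -0.66 and Osm at -0.78, whereas Il10, which restrains inflammation, was at 0.97, Il18 at 0.78 and Tnf at 0.68.

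Receptors and targets of innate signalling were within 2-fold throughout. Of all genes only 3.17% were at least 2-fold apart, so none in lists of these sizes is near that share. None of 29 genes of Toll-like receptors, RAGE and NF-kB was apart (median 0.20); Tlr7 was highest (0.93 ± 0.14) and the prostaglandin synthase Ptgs2 lowest (-0.99 ± 0.18). None of 35 interferon response genes was apart either (median 0.097), with Ifi47 (0.66 ± 0.067) and the immunoproteasome subunit Psmb8 (0.45 ± 0.058) highest and Ifit3 (-0.65 ± 0.10) and Gbp5 (-0.60 ± 0.030) lowest. Nor was any of 25 complement genes (median -0.0085): the anaphylatoxin receptor C3ar1 was at 0.98 ± 0.067 and C6 at 0.87 ± 0.067, against factor B, Cfb, at -0.72 ± 0.058 and C3 at -0.42 ± 0.067.

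Of 31 metalloproteinases, their inhibitors and urokinase genes 5 were at least 2-fold lower distally (16.1%, beside 1.94% of all genes) and 1 higher (3.23%, beside 1.24%). Below 0 lay 23, beside 47.0% of all genes (median -0.23). Urokinase, Plau, which activates plasminogen, stood at 10.63 proximally, 9.59 distally and 9.18 contralaterally (-1.04 ± 0.067). The stromelysin Mmp3 stood at 6.69 proximally, 5.67 distally and 2.02, not well above background, contralaterally (-1.02 ± 0.18), the collagenase Mmp13 at -1.21 ± 0.16 and Mmp10 at most -1.30, beside Mmp9 above. Serpinb2, an inhibitor of urokinase, is at least 1.32. Normexp moved Plau to -0.99, Mmp3 to -0.48, Mmp13 to -0.37, Mmp10 to -0.18 and Serpinb2 to 0.16.

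Cell cycle genes lay above 0 almost without exception. Of 54 measured 52 were above 0 (52.9% of all genes were), and the median was 0.54, but only 3 reached 2-fold (5.56%, beside 1.24% of all genes). The centromere protein gene Cenpf stood at 5.74 proximally, 6.82 distally and 3.29, not well above background, contralaterally (1.09 ± 0.18), the kinesin Kif2c at 1.07 ± 0.25 and the spindle protein gene Nusap1 at 8.54 proximally, 9.54 distally and 6.76 contralaterally (1.00 ± 0.054). Named after their values were seen, the mitotic genes Ube2c, Ccnb2 and Cdk1 stood at 0.91, 0.89 and 0.78, and the replication genes Mcm2, Pcna and Cdc6 at 0.27, 0.17 and 0.073; these few do not describe either group. Ccnd1, a G1 cyclin, was at -0.13. Which cells divide cannot be read from a bulk sample. With normexp the calls ended, moving Cenpf to 0.52, Kif2c to 0.52 and Nusap1 to 0.84, as they did with the 75th percentile (Cenpf to 0.96, Kif2c to 0.94 and Nusap1 to 0.94).

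Myelin genes stood lower distally in small steps. Of 34 measured 30 were below 0 (47.0% of all genes were), with a median of -0.43 and quartiles of -0.59 and -0.24. At least 2-fold apart were 1 lower (2.94%, beside 1.94% of all genes) and 1 higher (2.94%, beside 1.24%). Gal3st1, the enzyme that makes sulfatide, stood at 9.69 proximally, 8.46 distally and 10.87 contralaterally (-1.23 ± 0.14). Named after their values were seen, the fatty acid carrier Pmp2 (-0.88), the signal Dhh (-0.87), Cnp (-0.84) and Mag (-0.71) followed. The genes of the structural myelin proteins Mbp (-0.19) and Pmp22 (-0.18) were close to level. For the list the median against the shared contralateral array was -1.34 proximally and -1.88 distally. Cntn1, an axonal adhesion gene on this list, went the other way (1.29 ± 0.47) but was dim. With normexp Cntn1 was at 0.22, and the 75th percentile left it at the border.

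Schwann cell lineage genes showed 2 of 25 at least 2-fold lower (8.0%, beside 1.94% of all genes), Ncam1 (above) and Gfap. None was higher (1.24% of all genes were), and the median was -0.22. Without genes that are also on a muscle list, such as Ncam1, 1 of 23 was lower (4.35%). Gfap, an intermediate filament gene of non-myelinating Schwann cells, stood at 8.42 proximally, 7.22 distally and 6.76 contralaterally (-1.20 ± 0.063). Lineage factors named after their values were seen stayed within 2-fold: Sox10 was at -0.54, Egr2, which drives myelination, at -0.22, and Jun, which drives the repair state, at 0.26. Genes of the repair state were split, with a median of -0.034. Of 34 measured 4 were at least 2-fold higher (11.8%, beside 1.24% of all genes) and 3 lower (8.82%, beside 1.94%). Those higher were Igfbp2, Gdnf and Btc, given above, and the urocortin gene Ucn2, at 11.50 proximally, 12.56 distally and 7.31 contralaterally (1.06 ± 0.058). Lower were the EGF family ligands Areg, at 5.95 proximally, 4.62 distally and 1.80, not well above background, contralaterally (-1.33 ± 0.16), and Ereg, at most -1.76, and the receptor gene Gpr37l1, at 12.47 proximally, 11.26 distally and 13.01 contralaterally (-1.21 ± 0.062). Ligands of the EGF receptor thus stood on both sides. Other signals of the injured nerve named after their values were seen were near 0, with Lif at -0.042 and Artn at -0.099, and Ngfr was at 0.42 and Shh at -0.48. Normexp moved Gfap to -0.90, Areg to -0.43, Ereg to -0.21 and Btc to 0.69.

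Cholesterol synthesis, which supplies myelin, had no gene at least 2-fold apart among 27, near the 3.17% of all genes. Below 0 lay 22 (47.0% of all genes did), with a median of -0.22. The highest were Insig1 (0.43 ± 0.064), which holds the pathway back, and the carrier Stard4 (0.18 ± 0.030).

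By their medians connective tissue genes stood lower distally and fat genes a little higher. All 14 perineurial and tendon genes measured were below 0 (47.0% of all genes were), with a median of -0.55. At least 2-fold lower were 3 (21.4%, beside 1.94% of all genes). These were Tnmd (above), the tendon transcription factor Scx at -1.21 ± 0.16 and mesothelin, Msln, at -1.01 ± 0.062. Scx stood at 7.73 proximally, 6.52 distally and 9.56 contralaterally. Without Tnmd, which is also on a muscle list, 2 of 13 were lower, with a median of -0.52. Of 32 fibroblast and collagen genes 26 were below 0 (median -0.32). Comp, of tendon and cartilage matrix, was the 1 at least 2-fold lower (-1.13 ± 0.14). Periostin, Postn, was the 1 higher (1.09 ± 0.067). Each was 3.1% of the list, beside 1.94% of all genes lower and 1.24% higher. Of 23 adipocyte genes 16 were above 0 (52.9% of all genes were), with a median of 0.27 and a lower quartile of -0.10. The adrenergic receptor Adrb3 was the 1 at least 2-fold higher (4.35%, beside 1.24% of all genes), at 1.07 ± 0.17. Adiponectin, Adipoq, stood at 13.10 proximally, 13.79 distally and 14.48 contralaterally (0.69 ± 0.058). Endothelial and mural genes had a median of -0.16. Among 38, Lyve1 was the 1 at least 2-fold higher. Desmin, Des, a gene of muscle and mural cells, was the 1 lower (-1.06 ± 0.067). Each was 2.63% of the list, beside 1.24% of all genes higher and 1.94% lower. Normexp moved Scx to -0.80, Comp to -0.82, Postn to 0.98 and Adrb3 to 0.53, the 75th percentile Adrb3 to 0.95, and the mean over probes put Scx at -0.75.

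The RNA of axon and neuropeptide genes in a nerve comes in part from axons and from cells in the nerve. The median of 37 measured was -0.069. Of these, 3 were at least 2-fold higher (8.11%, beside 1.24% of all genes) and 2 lower (5.41%, beside 1.94%). The higher ones were Dbh (above), the peptide precursor Vip, at 4.25 proximally, 6.50 distally and 6.40 contralaterally (2.25 ± 0.37), and the granin Chgb (1.24 ± 0.37). In all 3 the distal and contralateral levels were close and the proximal level low. The rest of the noradrenaline pathway, named after its values were seen, did not match Dbh: tyrosine hydroxylase Th was at -0.13, Ddc at 0.80 and the transporter Slc6a2 at 0.51. Lower distally were the natriuretic peptide Nppb, at 9.81 proximally, 8.60 distally and 3.43, not well above background, contralaterally (-1.21 ± 0.045), and Calca, the precursor of CGRP, at 6.70 proximally, 5.58 distally and 7.47 contralaterally (-1.12 ± 0.18). Neurofilament genes stood at -0.030, -0.62 and -0.78 (Nefl, Nefm and Nefh, named after their values were seen). Normexp moved Vip to 0.73, Chgb to 0.32 and Calca to -0.51, and the 75th percentile Chgb to 0.99.

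Hypoxia and glycolysis genes stood lower distally, with 27 of 33 below 0 (47.0% of all genes were), 2 at least 2-fold lower (6.06%, beside 1.94% of all genes) and a median of -0.29, which was -0.27 without genes that are also on a muscle list. Egln3, an oxygen sensor that hypoxia induces, stood at 9.03 proximally, 7.71 distally and 8.85 contralaterally (-1.33 ± 0.14) and the lactate exporter Slc16a3 at 12.82 proximally, 11.77 distally and 7.85 contralaterally (-1.05 ± 0.058). Growth factor genes of the TGF-beta and IGF families had Igfbp2 higher and Inhba lower among 39 (median -0.10). That is 2.56% each way, beside 1.24% of all genes higher and 1.94% lower. Of 31 immediate early genes, which respond within minutes to stimulation, 1 was lower (3.23%, beside 1.94% of all genes), the signalling regulator Rgs1 (-1.03 ± 0.10). Their median was -0.040. Of the S100 family S100a3 alone was lower among 14 (7.14%, beside 1.94% of all genes), and the median was -0.23. S100a3 stood at 10.21 proximally, 9.11 distally and 11.91 contralaterally (-1.10 ± 0.067). Normexp moved Rgs1 to -0.87, and the 75th percentile Rgs1 to -0.98.

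Besides the mast cell, dendritic cell, innate signalling, interferon, complement and cholesterol lists above, 3 more lists had nothing at least 2-fold apart. Only 3.17% of all genes were, so none in a short list is near that share. The medians of all these lists ran from -0.22 to 0.43. Among 30 stress, heme and metallothionein genes the median was -0.083, with the glutathione peroxidase Gpx1 (0.45 ± 0.026) and heme oxygenase Hmox1 (0.39 ± 0.026) highest and the cystine transporter Slc7a11 (-0.83 ± 0.063) and Trib3 (-0.62 ± 0.18) lowest. For 11 erythroid genes, a guide to blood in the samples, it was -0.053, with Ahsp, which binds globin, at -0.10 ± 0.067. For 33 ribosomal protein genes it was -0.0077, and they ran from -0.14 ± 0.058 in Rpl14 to 0.20 ± 0.058 in Rpl10.

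**Figure D4:**
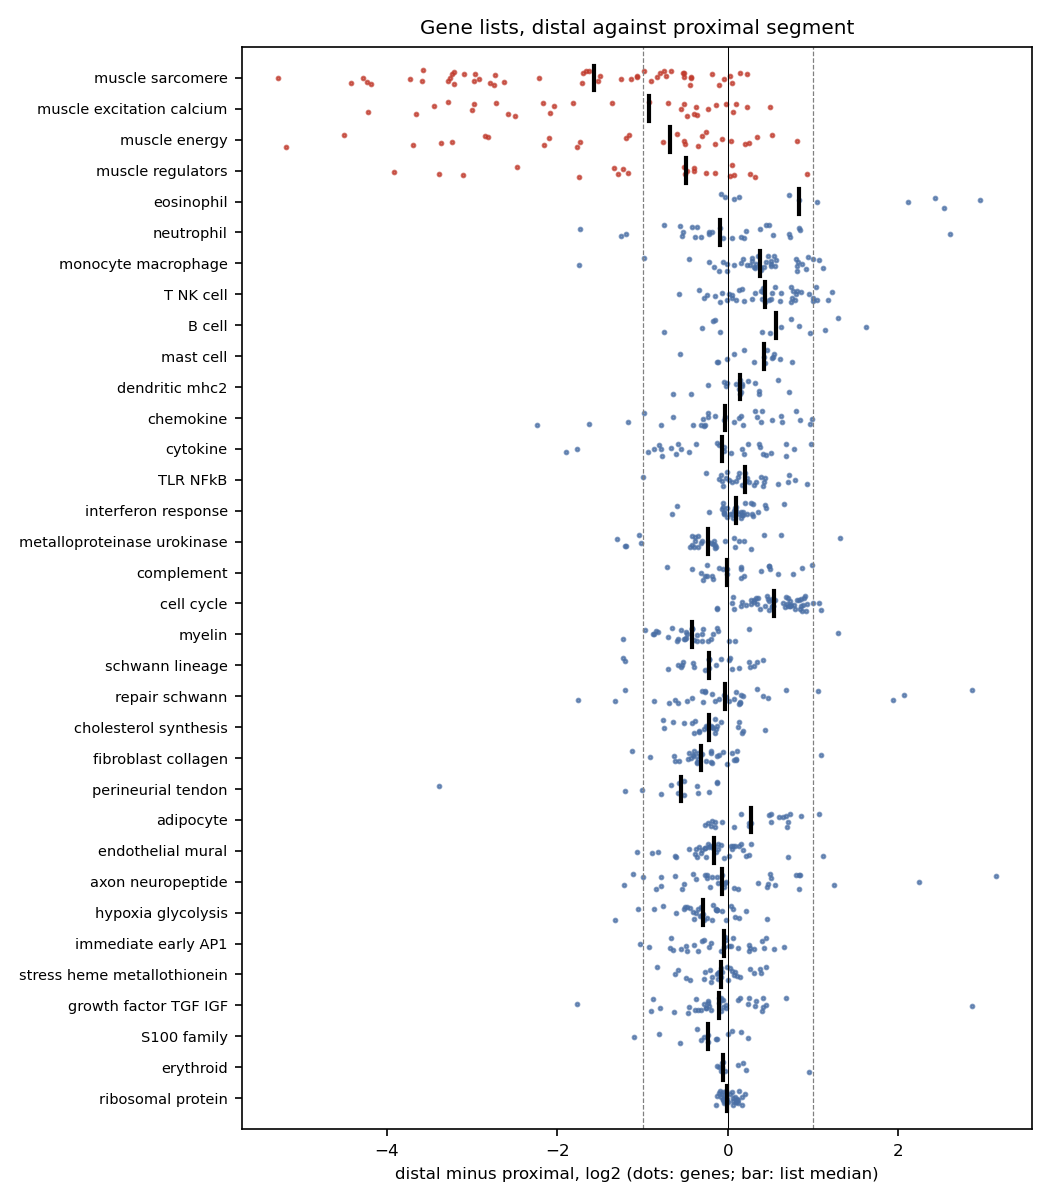
Distal minus proximal differences on the log2 scale (horizontal) for the measured genes of 34 lists, a dot per gene and a black bar at each list's median; a gene not well above background in 1 stump is drawn at its bound. The 4 muscle lists (red) have medians from -1.57 to -0.50, and those of the other 30 run from -0.55 in perineurial and tendon genes to 0.84 in eosinophil genes.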

How the data were processed

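Total RNA was labelled with Cy3 and hybridised to 1-colour Agilent arrays, 1 per sample. The deposited scanner output gives linear intensity per spot and was written by Feature Extraction 10.7.3.1 according to its headers; version 10.5 is named in the submitters' processing notes. The log2 values used here are those of the authors' value table, with 24938 rows (24894 probes and 44 controls). Its columns share the median 8.03, so they were normalized between arrays in a manner not given in the sources used here. Slide and scan were the same for all arrays, per the file headers; dissection, extraction and labelling may have differed between the stumps, which was not tested.

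Probe accessions were matched without versions to RefSeq symbols of assembly GRCr8 (15213 probes, 12765 symbols; 9681 probes had none, and of 9056 measured among these 123 were at least 2-fold higher and 141 lower). A gene was read from its probe with the highest mean over 8 columns. It counted as measured where that probe was well above background in at least 1 stump on the scan that ranks as its column (12222 genes; 543 were dim in both). A stump not above background was set to the higher of its own value and the lowest value flagged as detected (2.50 distally, 2.20 proximally), giving a bound for 341 genes. Errors are the spread of repeated spots, pooled over all probes in each of 5 classes of brightness. This was divided by the square root of a probe's number of spots and combined over both arrays. All 296 differences of at least 2-fold that were measured on both sides exceeded 2 such errors. The 2-fold border nearly fixed this outcome, as the median error was 0.12 and Ncr1 at the border, at 1.00 ± 0.47, passed as well. It is no further check of these genes. Among 39 genes at least 2-fold apart that had several probes, the probes of 3 (Bicdl1, Elovl2 and Lrtm2) disagreed in sign. Of 30367 probes 75.7% were well above background distally and 77.6% proximally; the number of arrays limits the precision.

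No test was made: counts of genes at least 2-fold apart, and list counts and medians beside those of all genes, describe these 2 arrays. Named were the 20 highest and 20 lowest genes measured on both sides, the 20 lowest outside the muscle lists, the 5 largest bounds each way, members of each of 34 lists at least 2-fold apart (up to 12, otherwise the 2 highest and 2 lowest), and S100a8, S100a9, Tlr4 and Ager. Members and lists were chosen with earlier results of these data known. Alternatives were the matching scans scaled to the 75th percentile, the same without outlier spots, normexp (offset 50, quantile normalized, limma 3.58.1 in R 4.3.3), the scans as recorded, the mean of a gene's probes, other filters on dim probes, another centring and folds of 1.5 and 4. The computation was tested on simulated data. Python 3.11.15 with pandas 2.3.3, numpy 2.4.6, scipy 1.17.1 and matplotlib 3.10.9 was used. Probes have coordinates of build rn4, per the file headers, which were not used. A few genes that the rule names are not reported here.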

Additional observations from a re-analysis of the deposited data

How the results depend on the processing

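With 1 array a side the design sets the main limit: no setting tests the spread between animals, and no paired analysis was possible because each group has 1 array. Depth is signal over background here, and it limits the dim genes, whose spot error is several times that of bright ones. When the matching scans were scaled to the 75th percentile (with and without outlier spots), or with the mean of probes, with no filter or floor, with both stumps above background and with the other centring, every named gene at least 2-fold apart that had a value kept its sign. The 75th percentile gave 96 genes higher with outlier spots kept and 96 with them left out, in place of 151. Normexp gave 26 higher and 85 lower, 72 of 137 named genes stayed at least 2-fold apart, and Gimd1 (0.78) and Zswim3 (0.60) turned. It put the median of the muscle genes at -0.52, of the sarcomere list at -0.66, of muscle excitation genes at -0.40 and of B cell genes at 0.20; its offset of 50 draws dim values together by construction. With both stumps above background the muscle median was -0.83 and that of the sarcomere list -1.13, which leaves out members dim on 1 side, and the mean of probes put muscle excitation genes at -1.33. The mean of probes also put Kif2c at 0.96 and Scx at -0.75, and the other centring Ncr1 and Nusap1 at 0.98. At 1.5-fold 660 genes were higher and 681 lower, at 4-fold 15 and 72.

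With the scans as recorded, which by rank set the distal nerve against Schwann cells stimulated for 1 h, 2642 genes were higher and 1827 lower, and the muscle median was 0.78. List medians were then sarcomere 0.87, muscle excitation 0.22, muscle energy 1.19, muscle regulators 0.72, neutrophil 5.67, eosinophil 4.82, mast cell 5.23, monocyte macrophage 7.41, T and NK cell 2.47, B cell 2.51, dendritic and MHC class II 3.15, chemokine 4.17, cytokine 1.42, TLR and NF-kB 2.19, interferon response 2.75, metalloproteinase 0.0070, complement 6.99, cell cycle -1.93, myelin 1.28, schwann lineage -1.64, cholesterol synthesis -1.06, fibroblast collagen 2.70, perineurial tendon 2.40, adipocyte 2.18, endothelial mural 3.84, axon and neuropeptide 0.58, hypoxia glycolysis 0.15, immediate early 0.35, stress and heme 0.56, erythroid 3.94 and S100 1.10. Of 125 named genes at least 2-fold apart that had a value, 64 had the opposite sign: Abra 1.67, Ampd1 0.64, Apobec2 1.74, Arg1 4.44, Asb11 0.97, Atp2a1 6.42, Cacna1s 1.60, Cacng1 0.99, Casq1 1.46, Cav3 1.48, Cenpf -2.76, Ckm 5.53, Ckmt2 3.08, Comp 0.56, Cox6a2 3.36, Cox8b 1.32, Cxcl1 3.07, Cxcl2 7.62, Cxcl6 0.83, Des 5.75, Dusp13b 2.53, Egln3 1.66, Eno3 1.36, Fbp2 1.74, Fitm1 0.78, Gdnf -0.045, Gpr37l1 5.67, Hjv 0.38, Hrc 1.02, Il1r2 3.26, Il6 5.43, Kif2c -2.42, Mmd2 0.36, Mmp3 0.72, Mmp9 3.29, Msln 8.24, Mybpc1 1.09, Myf6 0.84, Myh4 3.98, Myh6 2.11, Myh8 2.58, Myl1 4.13, Myl11 4.55, Myoz1 3.09, Nppb 2.97, Nusap1 -2.26, Ostn 0.76, Pgam2 1.05, Plau 2.72, Postn -4.12, Pvalb 5.66, Pygm 1.55, Rbm24 2.58, Rgs1 5.69, Rpl3l 1.98, Rrad 0.71, S100a3 1.32, Scn4b 1.66, Slc16a3 3.68, Sypl2 1.72, Tnnc2 5.23, Tnnt3 6.34, Trdn 2.97 and Trh 3.56. By the levels of Snap25 and Adipoq, the columns headed as stumps go with nerve, and not with cord or Schwann cells. The scan recorded as proximal nerve ranks as a Schwann cell column, in which Adipoq was not well above background. The values with the scans as recorded thus do not compare the stumps. Which stump is which, and which source pairs the other samples and scans rightly, was not tested.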
